A study of Mus musculus with 86 samples.

Results

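The reporter oligos described here tile the 3′ UTR of mouse Fam219a (gene ID ENSMUSG00000028439). They are all oligos whose name carries that symbol, 732 of the 11955 in the pool, which tiles 16 genes. Of these, 317 are companions in which every motif of a wild-type oligo was mutated, and the rest are wild type. Each oligo is 260 nt long and starts 6 nt after the one before it, so neighbouring oligos share nearly all of their bases and are not replicates of one another. The tiling covers 2744 nt at chr4:41517595-41520338 of GRCm38 on the minus strand, of which the first 96 positions are coding and the last 96 lie past the annotated transcript end. Oligos are numbered from 1 at the 5′ end. The list of sequences has none for the 42 wild-type oligos 139 to 180, so their bases and motif counts were filled in from oligos on either side. The filled bases matched the annotated transcript, and the mutated positions in the names of the companions differed from the motifs found in 0 oligos.

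TDP-43, the product of Tardbp, is an RNA-binding protein that prefers GU-rich RNA, takes part in splicing, stability and transport of transcripts, and leaves the nucleus to form aggregates in amyotrophic lateral sclerosis and frontotemporal dementia. Fam219a encodes a protein whose function is little characterised. A 3′ UTR can carry elements that set how long an mRNA lives and where in a cell it is found, and tiling it with reporters places such elements on the sequence.

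The cells were the mouse neuronal lines CAD and N2A, differentiated by serum removal and parted into cell bodies (soma) and neurites before RNA was taken. Both lines had the genotype TetOff TDP-43: the endogenous alleles were disrupted, and the cells lived on a single-copy HA-tagged TDP-43 transgene with the gene's own 3′ UTR that doxycycline shuts off, in lines grown from single cells. Libraries without doxycycline are called wild type here, and those with 2 µg/mL doxycycline for 48 h are called knockout. That dose is the one in the labels, while the methods give 1 µg/mL and, for the MPRA, have it added a day before the cells were plated. A further CAD set was made from wild-type CAD cells, whose endogenous Tardbp alleles were intact. In it a transgene for HA-tagged TDP-43, wild type or Q331K, was placed at a loxP cassette and induced with doxycycline. The paper reports that induction lowered TDP-43 from the endogenous alleles. Reads of the transgenes in all these cells add to Tardbp. The endogenous gene was read by RNA-seq in 3 libraries for each fraction and state. The oligos were read as follows: in a massively parallel reporter assay (MPRA) in CAD soma and neurites, with 4 libraries per fraction and genotype; in RNA Bind-n-Seq (RBNS), where purified TDP-43 at 0, 5, 50 or 500 nM pulled down the pool in vitro, with 2 libraries at 5, 50 and 500 nM and 1 each at 0 nM and for the input; and in SLAM-seq, where 4-thiouridine (4SU) put into RNA is read as T-to-C conversions at 0 and 12 h of a chase without it. The chase had 3 knockout libraries at each time, 2 wild-type libraries at 0 h and 3 at 12 h, and 3 libraries without 4SU gave the background. Neither the labels nor the methods state whether equally numbered libraries of cells share a culture. The methods give a separate batch of protein for each RBNS duplicate, without saying which number at 1 concentration goes with which at another.

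Library totals were 7923270 to 12208997 molecular identifiers (UMIs) in the 16 MPRA libraries, 1806779 to 9646262 reads in the 8 RBNS libraries and 10782983 to 33024830 reads in the 14 SLAM-seq libraries. Estimated reads were 25009904 to 32895542 in the 12 CAD libraries, 22726534 to 31911030 in the 12 N2A libraries and 9783050 to 15870647 in the 12 transgene libraries. The Fam219a oligos took 3.01% to 3.35% of the UMIs in the knockout neurite libraries and 4.35% to 4.83% in the other MPRA libraries. In the knockout neurite libraries the 10 most abundant oligos of the pool held 2.93% to 3.13% of the UMIs, against 0.562% to 0.929% elsewhere. Values below are scaled by TMM, which sets the bulk of the oligos level between libraries. Scaling to the plain total instead moved the median of all oligos for knockout against wild type to -0.12 in soma and to -0.64 in neurites, so every MPRA change is relative to the other oligos of the pool. By conversion rate, a single SLAM-seq library with 4SU stood apart from its group. Over the whole pool the knockout libraries at 12 h converted 1.37%, 0.465% and 0.511% of T positions, and replicate 1 lay above all 3 wild-type libraries at 12 h, which had 1.17%, 1.17% and 1.33%. Tests of label loss are therefore given with and without it.

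Tardbp (ENSMUSG00000041459) was examined as a check on the labels. In CAD soma its level was 669, 1002 and 981 TPM, the transcript measure of Salmon, in wild-type libraries and 115, 134 and 159 TPM in knockout libraries. In CAD neurites the wild-type libraries had 193, 259 and 330 TPM and the knockout libraries 81.9, 82.1 and 77.4 TPM. Every knockout library was below every wild-type library of its fraction, and the transcript was not lost altogether. In N2A soma Tardbp stood at 756, 880 and 982 TPM without doxycycline and at 238, 235 and 263 TPM with it. N2A neurites had 241, 445 and 435 TPM against 104, 195 and 173 TPM. The groups did not overlap here either. On the log2 scale Tardbp fell by 2.52 in CAD soma, 1.89 in CAD neurites, 1.78 in N2A soma and 1.41 in N2A neurites (edgeR quasi-likelihood test, Benjamini-Hochberg adjusted p 3.35e-12, 3.92e-11, 2.58e-09 and 1.59e-08). In the transgene set Tardbp lay between 1260 and 1529 TPM in soma and between 706 and 832 TPM in neurites, and the Q331K and wild-type transgene libraries overlapped in both.

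The endogenous Fam219a transcript, the setting of the tiled sequence, changed with TDP-43 in neurites of CAD cells. Its level in CAD neurites was 5.30, 6.71 and 7.25 TPM in wild-type libraries and 47.1, 60.0 and 57.8 TPM in knockout libraries. In CAD soma it was 24.9, 37.1 and 37.7 TPM in wild-type libraries and 32.4, 32.7 and 37.8 TPM in knockout libraries. All 3 knockout neurite libraries were far above the wild-type ones, whereas the soma libraries of both states overlapped. The neurite change was 2.91 ± 0.09 (SE) on the log2 scale (edgeR adjusted p 1.02e-12; 25.3% of 17343 genes passed 0.01 in that test), and the soma change was 0.15 ± 0.08 (adjusted p 0.191; 22.8% of genes passed), or 0.10 without replicate 2 and 0.24 without replicate 3. The difference between those changes, which is the change in the neurite to soma ratio, was 2.76 ± 0.12 (adjusted p 3.89e-10), a test that 0.432% of genes passed. Between 2.61 and 2.95 remained when each replicate was left out in turn. In these bulk fractions, more neurites holding the RNA and more RNA per neurite cannot be told apart.

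N2A cells gave a smaller change in the same direction. Fam219a in N2A neurites was at 3.98, 6.73 and 6.05 TPM in wild-type libraries and at 9.82, 19.1 and 16.04 TPM in knockout libraries. In N2A soma the wild-type libraries had 36.7, 34.4 and 35.9 TPM and the knockout libraries 41.4, 36.8 and 34.1 TPM. The neurite groups did not overlap, and the soma groups did. The neurite change was 1.26 ± 0.08 (edgeR adjusted p 5.08e-08; 11.6% of 17912 genes passed), the soma change 0.28 ± 0.08 (adjusted p 0.0113; 16.1% passed), and the change in the ratio 0.98 ± 0.11 (adjusted p 0.00049), which 0.1% of genes passed. With DESeq2 the soma change was 0.32 (adjusted p 0.00078) and with a replicate block 0.29 (adjusted p 0.00503), both past the threshold of 0.01. With upper-quartile scaling it was 0.18 (edgeR adjusted p 0.0807). Without replicate 1, 2 or 3 it was 0.26, 0.41 and 0.32 (edgeR adjusted p 0.0604, 0.0915 and 0.0416). Leaving out replicate 1, 2 or 3 of each group kept the ratio change at 0.99, 0.88 and 0.97 but raised its adjusted p to 0.0255, 0.457 and 0.0197, above the threshold each time. Whether CAD and N2A differed in this change was not tested.

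With the Q331K transgene, Fam219a stood at 8.39, 8.83 and 7.82 TPM in neurites, and with the wild-type transgene at 12.2, 12.2 and 15.4 TPM. In soma the Q331K libraries had 24.2, 31.8 and 34.2 TPM and the wild-type transgene libraries 31.8, 30.6 and 31.6 TPM. The neurite libraries did not overlap, with Q331K lower. The neurite difference of -0.36 ± 0.11 did not pass (edgeR adjusted p 0.300, unadjusted 0.00333), nor did the soma difference of 0.02 ± 0.10 (adjusted p 0.985), whose sign turned without replicate 2 or 3 (-0.07 and -0.04). The difference between the fractions was -0.39 ± 0.14 (adjusted p 0.999), or -0.21 without replicate 3. By edgeR none of the 13940 genes passed any of the 3 tests (0%), and DESeq2 called 10 genes in neurites and none in the other tests. An antisense gene, Fam219aos, overlaps the end of the UTR, and the counting strand of the RNA-seq is not stated. Its own level was at most 0.181 TPM in CAD, 0.157 TPM in N2A and 0.494 TPM in the transgene set.

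The tiled region holds 75 overlapping occurrences of the 3 motifs that were mutated, 32 of UGUGU, 31 of GUGUG and 12 of GUAUG. Occurrences within 30 nt of one another form 11 clusters, and 1 cluster holds 52 of the 75. It spans tiled positions 1016 to 1156, chr4:41519183-41519323, and lies whole inside oligos 151 to 170. A lesser group of 2 clusters at tiled positions 1461 to 1499 and 1545 to 1577 holds 4 and 7 occurrences. Of the wild-type oligos, 98 hold no motif, 119 hold 1 to 2, 116 hold 3 to 9 and 82 hold 10 or more. Predicted pairing in windows of 80 nt left motif bases unpaired 42.2% of the time on average (187 bases) and other bases 49.6% (2557 bases). The main cluster stood at 45.3%, the cluster at 1461 to 1499 at 42.6% and the cluster at 1545 to 1577 at 28.0%.

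Shown next are 3 sites of at most 30 bases, so that the motifs can be seen in their sequence: the GUAUG repeats that open the main cluster, its longest GU run, and the run of the downstream cluster. Capitals mark bases inside a 5-nt motif, T stands for U, and all are on the minus strand of chromosome 4 of GRCm38. The repeats at chr4:41519294-41519323 are whole in oligos 132 to 170, the GU run at chr4:41519194-41519223 in oligos 149 to 186, and the downstream site at chr4:41518770-41518799 in oligos 220 to 257. The effect of any of these sites by itself was not tested.
GUAUG repeats: GTATGatatgGTATGGTATGGTATGGTATG
GU run: GTGTGcGTGTGTGTGTGTGTGTGTtgtacc
Downstream cluster: aagtgGTGTGTGTGTagctgtactgggtgt

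Of the 732 oligos, 403 wild-type and 303 mutated ones passed the MPRA filter on low counts, and the 12 wild-type oligos that did not were 391 to 402. In soma, knockout against wild type, 45 wild-type oligos were higher at an adjusted p under 0.01, beside 7.55% of all 11918 oligos tested. That is 11.2% of the Fam219a wild-type oligos beside 10.4% of all wild-type ones, so the share was near that of the pool. They were oligos 142 to 186, every oligo of that stretch. None was lower (edgeR; 0.101% of all oligos; DESeq2 called 1), with 67 wild-type oligos at an unadjusted p under 0.05 in either direction. In neurites 47 wild-type oligos were higher, beside 8.06% of all oligos and 10.9% of all wild-type ones: oligos 141 to 186 and oligo 47, which has no motif. There 2 wild-type and 2 mutated oligos were lower, beside 0.696% of all. Among the mutated companions edgeR called none higher in either fraction (20 in soma and 32 in neurites at an unadjusted p under 0.05; DESeq2 also called none higher). Of all mutated oligos of the pool, 2.9% were called higher in soma and 3.47% in neurites. The median change of the wild-type oligos was 0.00 in soma and -0.00 in neurites, that of the companions -0.03 and -0.04, and that of all oligos -0.01 and -0.02. Scaled to the total, 44 wild-type oligos were higher and 30 lower in soma, and 43 were higher and 346 lower in neurites. With upper-quartile scaling 44 were higher in each fraction, with 12 lower in soma and 93 in neurites.

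Oligo 151 is the first of the 20 oligos, 151 to 170, that carry the most motifs, 52 each. In wild-type neurites it had 27.6, 27.3, 29.8 and 26.3 CPM (UMI counts scaled to a common total), and in knockout neurites 198, 189, 209.6 and 198 CPM. In wild-type soma it had 48.8, 47.1, 38.6 and 34.7 CPM, and in knockout soma 125, 121, 129 and 119 CPM. All knockout libraries were above all wild-type libraries in both fractions, and the wild-type neurite libraries were the lowest of all. The rise was 2.84 ± 0.08 in neurites (edgeR adjusted p 5.56e-21) and 1.55 ± 0.07 in soma (2.40e-15). Its companion had 22.3, 16.4, 17.1 and 22.1 CPM in wild-type neurites and 18.5, 15.97, 24.3 and 16.2 CPM in knockout neurites. In soma the companion had 16.3, 22.3, 15.7 and 18.9 CPM without doxycycline and 20.5, 21.3, 15.2 and 17.1 CPM with it. The companion's groups overlapped in both fractions, and all its 16 values lay below every value of oligo 151.

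Summed over oligos 142 to 186, the 45 wild-type oligos held 1176 to 1290 CPM in the 4 wild-type neurite libraries and 4394 to 4558 CPM in the 4 knockout neurite libraries. Soma sums were 1391 to 1748 CPM without doxycycline and 3498 to 3815 CPM with it. Their companions held 1382 to 1543 and 1395 to 1450 CPM in neurites, and 1338 to 1483 and 1322 to 1493 CPM in soma. The companions overlapped between all 4 groups, and the wild-type oligos did so between none of the genotype comparisons. These 45 wild-type oligos were picked because they were called higher in both fractions in the same libraries. That choice fixed the separation of their sums and the direction of their changes, so these values only describe the stretch. Per oligo the changes ran from 0.22 to 1.70 in soma and from 0.25 to 2.94 in neurites, and the median changes were 1.28 and 1.97. The companions' changes ran from -0.14 to 0.32 and from -0.28 to 0.25.

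The largest neurite rises were in oligos 158, 151, 161, 162 and 168, between 2.56 and 2.94. Oligo 158 had 15.3, 17.4, 15.5 and 18.5 CPM in wild-type neurites and 121, 107, 140.1 and 142 CPM in knockout neurites. Its groups were far apart, with a change of 2.94 ± 0.11 (edgeR adjusted p 7.41e-18). In soma the largest rises were in oligos 176, 150, 147, 170 and 151, between 1.55 and 1.70. Oligo 176 had 30.5, 24.2, 24.4 and 23.7 CPM in wild-type soma and 79.8, 84.9, 83.97 and 85.2 CPM in knockout soma, a change of 1.70 ± 0.07 (adjusted p 5.39e-16). The order of the leading oligos thus differed between the fractions, and only oligo 151 was among the leading 5 in both. The falls in neurites were small: -0.25 in mutated oligo 123, -0.20 in oligo 122, and -0.18 in oligo 123 and mutated oligo 112. Mutated oligo 123 had 70.7, 66.3, 63.2 and 69.8 CPM in wild-type neurites and 61.1, 59.1, 54.5 and 52.6 CPM in knockout neurites. All 4 calls were lost without replicate 2 and without replicate 4 of each group. Without replicate 1 those of oligo 122 and mutated oligo 112 were lost, and without replicate 3 those of oligo 123 and mutated oligo 112.

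The changes fell off toward both ends of the stretch. Oligos 141, 142, 186 and 187 are given here because of where the calls began and ended, so they were chosen after their values were seen. Oligo 141, with 24 motifs, had 40.6, 36.2, 39.1 and 38.2 CPM in wild-type soma and 44.8, 42.4, 41.6 and 41.7 CPM in knockout soma. Oligo 142, which adds 1 GUGUG for 25 motifs, had 42.5, 39.6, 35.4 and 37.8 CPM against 58.5, 60.3, 54.1 and 61.5 CPM. The groups did not overlap in either oligo, and the gap was wider in oligo 142. The changes of oligo 141 were 0.14 in soma, which was not called, and 0.30 in neurites (edgeR adjusted p 0.00177), which was, and those of oligo 142 were 0.60 and 0.78. At the other end, oligo 186 with 22 motifs had 46.4, 45.1, 48.98 and 47.7 CPM against 53.1, 55.0, 57.8 and 53.8 CPM, and its changes of 0.22 and 0.25 were the lowest of the stretch. Oligo 187 with 18 motifs had 104, 101, 105 and 112 CPM against 106, 108, 119 and 102 CPM. Its groups overlapped. Oligo 142 covers tiled positions 847 to 1106 and oligo 186 covers 1111 to 1370, so the ends of the stretch share no base. Oligo 142 holds 8 UGUGU, 9 GUGUG and 8 GUAUG, while oligo 186 holds 11, 11 and no GUAUG. Just outside, oligos 136 to 141 hold 10 to 24 motifs and had median changes of -0.08 in soma and 0.01 in neurites, and oligos 187 to 189 hold 11 to 18 and had 0.04 and 0.07.

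The 28 oligos 217 to 244, which hold 10 to 11 motifs of the downstream clusters, had median changes of -0.03 in soma and 0.07 in neurites, and none was called in either. The responding stretch holds 22 to 52 motifs, so motif count and position cannot be told apart. Among all 82 wild-type oligos with 10 or more motifs, the median change was 0.81 for soma and 0.98 for neurites, against 0.01 and 0.00 with 3 to 9, -0.02 and -0.06 with 1 to 2, and 0.00 and -0.01 with none. Finer classes, drawn after the values were seen, went from -0.05 and 0.07 at 10 to 19 motifs (35 oligos) to 0.63 and 0.81 at 20 to 29 (8 oligos) and 1.31 and 1.57 at 30 to 39 (5 oligos). From there soma stayed level while neurites rose: 1.38 and 1.84 at 40 to 49 motifs (11 oligos), and 1.28 and 2.37 at 50 or more (23 oligos). Classes of so few overlapping oligos are a description of 1 stretch of sequence. In bins of 20 oligos along the UTR, the bins 141 to 160 and 161 to 180 had neurite medians of 2.18 and 1.93 and soma medians of 1.34 and 1.28. The other 19 bins lay between -0.06 and 0.17 in soma and between -0.08 and 0.10 in neurites.

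The knockout changed the neurite to soma ratio of 28 wild-type oligos upwards, beside 5.15% of all oligos: 146 to 171, 173 and 174, which hold 39 to 52 motifs. They make 6.95% of the Fam219a wild-type oligos, and 7.06% of all wild-type oligos were called, so the share was at the level of the pool. None was changed downwards (edgeR; 0.277% of all oligos; DESeq2 also called none), with 56 at an unadjusted p under 0.05 in either direction. No companion was called (10 at an unadjusted p under 0.05; none by DESeq2). Of all mutated oligos of the pool, 2.07% were called upwards and 0.308% downwards. The median over wild-type oligos was 0.02, over companions -0.02 and over all oligos -0.01. Scaled to the total, which moves the median of all oligos to -0.51, 15 were higher and 310 lower. All 28 oligos share tiled positions 1039 to 1130. The largest changes were in oligos 158, 161, 168, 162 and 151. For oligo 158 the change was 1.79 ± 0.15 (adjusted p 7.90e-10), from soma libraries of 32.0, 28.1, 24.5 and 21.4 CPM in wild-type cells and 60.9, 52.5, 65.5 and 57.2 CPM in knockout cells. For oligo 151 it was 1.29 ± 0.10 (adjusted p 2.74e-10). With the mean of the soma libraries as base, oligo 151 stood at -0.60, -0.62, -0.49 and -0.67 in the wild-type neurite libraries and at 0.68, 0.61, 0.76 and 0.68 in the knockout ones, all below 0 in the former and all above 0 in the latter. The remaining oligos of the stretch 142 to 186 rose in both fractions with no called difference between them.

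Before the knockout, the ratio of many of these oligos was already low. In wild-type cells 29 wild-type oligos were lower in neurites than in soma, beside 1.48% of all oligos and 2.25% of all wild-type ones, and 26 of them lay between 146 and 175. The other 3, oligos 317, 320 and 321, hold no motif, and their ratios were -0.36, -0.34 and -0.33; they are named after their values were seen. None was higher (edgeR; 2.57% of all oligos; none by DESeq2), with 105 wild-type oligos at an unadjusted p under 0.05, and none of the companions was called in either direction (26 at an unadjusted p under 0.05; none by DESeq2). Of all mutated oligos of the pool, 1.93% were called higher and 0.22% lower. The median ratio was -0.03 over wild-type oligos, 0.02 over companions and -0.00 over all. Among the called oligos whose groups did not overlap, the lowest ratio was that of oligo 171, with 8.20, 8.47, 8.95 and 10.3 CPM in neurites and 17.6, 16.1, 15.6 and 13.1 CPM in soma, or -0.80 ± 0.11 (adjusted p 1.07e-05). Oligos 158, 159, 151 and 166 followed, between -0.67 and -0.60, and without replicate 1 oligos 158 and 166 were no longer called (-0.52 and -0.47). Leaving out replicate 1 of each group left 11 oligos lower, and leaving out replicate 2 left 17.

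Setting each wild-type oligo against its companion in the same library tests the part of a change that goes with the motif bases. Such pairs numbered 303 for Fam219a and 4551 in the pool. In soma 45 pairs were higher (limma, adjusted p under 0.01; 12.1% of all pairs), and they were again oligos 142 to 186, while none was lower (0.0659% of all pairs; 48 pairs at an unadjusted p under 0.05). In neurites 46 were higher (14.2% of all pairs), oligos 142 to 186 and 225, and none was lower (0.242%; 65 at an unadjusted p under 0.05). For the change in ratio 18 were higher (7.08%) and none lower (0.022%; 48 at an unadjusted p under 0.05). The median motif effect of the Fam219a pairs was 0.03 in soma, 0.04 in neurites and 0.03 for the ratio, beside 0.02, 0.03 and 0.02 over all pairs. Oligo 151 against its companion changed by 2.90 ± 0.17 in neurites (limma adjusted p 1.32e-10) and 1.54 ± 0.17 in soma (1.23e-06). Oligos 158, 151, 161, 169 and 168 led in neurites, at 2.54 to 3.12, and oligos 170, 176, 180, 147 and 151 in soma, at 1.54 to 1.68. For the ratio the leading pairs were 158, 161, 157, 163 and 162, at 1.41 to 1.89. The call of oligo 158 was lost without replicate 1, 3 or 4 (1.85, 1.70 and 1.94), that of 157 without replicate 3 (1.52) and that of 162 without replicate 4 (1.32). Leaving out replicate 1 of each group left 9 pairs higher for the ratio and leaving out replicate 2 left 11. Oligo 225, which lies in the downstream part and is named after its value was seen, had a neurite motif effect of 0.31 ± 0.06 (limma adjusted p 0.00136).

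Binding in vitro was followed as R, the share of an oligo in a bound library over its share in the input, with 0.5 reads added to each. The bins of oligos 361 to 400 had no R values, and the companions of the main stretch had a median of 4 input reads against 102 for its wild-type oligos. At 500 nM the wild-type oligos with 10 or more motifs had a median R of 6.83 and 4.95 in the 2 libraries, against 0.652 and 0.725 over all oligos of the pool. At 50 nM they had 3.10 and 3.81, against 0.691 and 0.614, and at 5 nM 1.20 and 1.41, against 0.922 and 0.915. At 0 nM, with 1 library, they had 1.02 and the pool 0.886. That pool value is also the R of an oligo with 0 reads in both libraries, as in mutated oligo 151. Oligos with few or no reads can therefore set the pool medians, and their number is not given here. The gap to the pool was widest at 500 nM. It was not particular to the motif-rich class at low concentration: at 5 nM oligos with 1 to 2 motifs had 1.28 and 1.38 and those with none 1.20 and 1.20, and at 0 nM these had 1.27 and 1.003. Oligos with 3 to 9 motifs stood at 0.883 and 0.830 at 500 nM, those with 1 to 2 at 0.650 and 0.544, and those with none at 1.24 and 1.11. With at least 100 input reads the medians were lower: at 500 nM that of the no-motif class was 0.518 and that of the class with 10 or more motifs 4.35, and at 50 nM they were 0.898 and 2.04 in place of 1.32 and 3.80.

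Against 5 nM, 92 wild-type oligos gained share at 500 nM, beside 12.4% of the 10479 oligos tested, and 77 lost share, beside 21.1%. Of the Fam219a wild-type oligos 26.4% gained and 22.1% lost, beside 15% and 20% of all wild-type ones. The tested oligos were 349 wild-type and 257 mutated ones. No companion gained (edgeR; DESeq2 called 9 and edgeR with TMM 6; 132 at an unadjusted p under 0.05) and 69 lost share. Of all mutated oligos of the pool, 8.17% gained and 23% lost share. Only 20 of the 45 companions of oligos 142 to 186 were tested, 1 of them from the 23 oligos with 50 or more motifs, and the median change of the 20 was 1.30. The median change was -0.30 for wild-type oligos, -0.78 for companions and -0.40 for all. Of the 92, 72 hold 10 or more motifs, 13 hold 3 to 9 and 7 hold none. Leaving out 1 of the 2 libraries of a concentration leaves a group of 1 library, whose spread is taken from the other groups, so fewer calls and fewer libraries cannot be told apart. The losses, 146 with the companions, fell to 77 without the second library at 500 nM and to 85 without the second at 5 nM. From 5 to 50 nM, 27 wild-type oligos and 6 companions gained share (4.71% of all oligos) and 2 and 3 lost it (3.24%), with medians of 0.10 and 0.19 beside -0.45 for all. Over all wild-type oligos 4.98% gained. Without either library at 5 nM no oligo was called by edgeR (84 wild-type oligos at an unadjusted p under 0.05 either way, with 51 and 58 companions), and without the second at 50 nM 3 were higher. A block by replicate number gave 25 wild-type oligos and 1 companion higher, and a block with the numbers at 500 nM exchanged, chosen after the values were seen, gave 39 and 17. From 50 to 500 nM, 35 wild-type oligos gained share (11.6% of all) and 59 lost it (13.1%), while no companion gained (edgeR and DESeq2; 158 at an unadjusted p under 0.05) and 95 lost. Over all wild-type oligos 13.3% gained and 10.7% lost, and over all mutated ones 8.68% gained and 17.2% lost. Medians were -0.39 and -1.07 beside 0.01 for all. The losses, 154 with the companions, fell to 42 without the first library at 50 nM, where the gains fell to 16, and to 58 without the second at 500 nM.

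Oligos 142 to 186 and oligos 217 to 244 are the 2 motif-rich parts of the UTR. The former had median R of 1.75 at 5 nM, 5.62 at 50 nM and 6.84 at 500 nM. Of these 45 oligos, 24 gained from 5 to 50 nM, 40 from 5 to 500 nM, and edgeR called none from 50 to 500 nM. Oligos 217 to 244 had 1.003, 1.24 and 3.47 at the same concentrations. All 28 of them gained from 5 to 500 nM, 22 from 50 to 500 nM, and none was called from 5 to 50 nM. The calls from 5 to 50 nM were lost without either library at 5 nM, and over all wild-type oligos they rose from 27 to 49 with TMM and to 56 with DESeq2. The difference between the parts was not tested. At 500 nM their R values overlapped, running from 4.51 to 9.41 in the former and from 1.85 to 6.55 in the latter. The companions of the downstream part had a median R of 0.866 at 500 nM, while those of oligos 142 to 186, with few input reads, had 3.25 and 2.49 in the 2 libraries, above the pool. At 0 nM and in the first library at 5 nM the latter had medians of 0.886 and 1.35. These equal the R of mutated oligo 151, which had 0 input reads. With so few reads, the medians of these companions cannot show whether they bound. Binding also reached past the end of the reporter response. Oligo 187 had R of 1.20 and 1.13 at 5 nM, 6.97 and 9.45 at 50 nM and 8.04 and 5.36 at 500 nM, and its mean R at 50 and 500 nM, 8.21 and 6.70, was within the range of oligos 142 to 186. Its companion had 1.62 and 1.27 at 500 nM. In the MPRA oligo 187 had no called change in soma or neurites.

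Oligo 178 had the highest mean R at 500 nM of the wild-type oligos, with 10.6 and 8.23, after 7.56 and 10.8 at 50 nM, 2.01 and 2.41 at 5 nM and 1.23 at 0 nM, from 75 input reads. It holds 44 motifs. From 5 to 500 nM it gained 2.11 ± 0.31 (edgeR adjusted p 0.000266). In the MPRA it had 23.2, 27.9, 23.5 and 25.2 CPM in wild-type neurites and 95.7, 93.4, 83.3 and 82.7 CPM in knockout neurites, a change of 1.84 ± 0.08 (adjusted p 3.45e-16). In soma it had 37.5, 29.7, 28.9 and 27.7 CPM against 83.2, 81.6, 83.4 and 79.6 CPM, a change of 1.40 ± 0.07 (adjusted p 4.59e-14). Its companion stayed between 24.6 and 34.4 CPM in all 16 libraries and had R of 3.60 and 2.46 at 500 nM from 10 input reads. Oligo 151 had R of 1.72 and 3.02 at 5 nM, 5.53 and 4.73 at 50 nM and 7.22 and 4.92 at 500 nM, from 145 input reads. Its gain from 5 to 500 nM was 1.39 ± 0.32 (edgeR adjusted p 0.00375), and it was no longer called without the first library at 500 nM (1.08) or the first at 5 nM (1.02). No R is given for its companion, which had 0 input reads.

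The largest gains from 5 to 500 nM were in oligos 168, 157, 53, 220 and 145, between 2.70 and 2.99, and oligo 220 was no longer called without the second library at 5 nM (2.47). Oligo 168 had R of 1.04 and 0.737 at 5 nM and 8.15 and 6.15 at 500 nM, a gain of 2.99 ± 0.31 (edgeR adjusted p 0.000127). Oligo 53 differs from the others in that it holds no motif. Its R was 0.406 and 0.610 at 5 nM, 0.485 and 0.758 at 50 nM and 3.35 and 3.72 at 500 nM, a gain of 2.83 ± 0.32 (adjusted p 0.000129) from 396 input reads. It is 1 of the 7 motif-free gainers, oligos 49 to 55, which overlap one another, have R of 2.45 to 4.93 at 500 nM, and hold a median of 16.2% U and 59.6% GC beside 23.1% and 55.8% over all wild-type oligos. In the MPRA oligo 53 had 80.1, 86.7, 95.0 and 78.0 CPM in wild-type neurites and 92.6, 91.2, 87.2 and 93.1 CPM in knockout neurites, and those groups overlapped. The gains from 5 to 50 nM were led by oligos 185, 187, 177, 184 and 168, at 2.64 to 2.89, and those from 50 to 500 nM by oligos 53, 230, 227, 225 and 238, at 1.79 to 2.50. None of the former was called without either library at 5 nM, though oligo 185 still stood at 2.57 and 3.24, and oligo 227 was not without either at 50 nM (1.68 and 2.29). Oligo 185 had R of 1.25 and 1.99 at 5 nM and 9.10 and 14.5 at 50 nM.

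The largest losses from 5 to 500 nM were in oligos 356, 357, 353, 355 and 279, from -3.60 to -2.91. Oligo 356, without a motif, had R of 1.93 and 1.13 at 5 nM, 1.05 and 0.481 at 50 nM and 0.138 and 0.116 at 500 nM, a change of -3.60 ± 0.42 (edgeR adjusted p 0.000131). Both libraries at 500 nM were far below both at 5 nM. The same stretch gave 3 of the 5 largest losses from 50 to 500 nM, oligos 353, 356 and 355, beside 279 and 280, at -2.80 to -2.43, and oligos 353 and 355 were no longer called without the first library at 50 nM (-2.09 and -1.78). From 5 to 50 nM the largest losses were -1.44 in mutated oligo 235, -1.37 in oligo 196, -1.23 in oligo 199, -1.22 in mutated oligo 223 and -1.06 in mutated oligo 204. Of 12 alternatives, 5 ended the call of mutated oligo 235, 7 that of oligo 199 and 6 that of each of the others. For this comparison edgeR with TMM called 0 Fam219a oligos lower and DESeq2 called 1. R is a share of each library, so when strongly bound oligos gain share the rest lose it. In the MPRA oligo 356 had 72.7, 60.1, 68.0 and 62.7 CPM in wild-type neurites and 63.6, 65.6, 67.1 and 68.3 CPM in knockout neurites, which overlapped.

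Label loss was measured on 362 wild-type and 258 mutated Fam219a oligos that had at least 1000 T positions read in each library. In the libraries without 4SU the median rate over oligos 142 to 186 was 0.237%, 0.232% and 0.219%, beside 0.247%, 0.196% and 0.166% over all oligos. At 0 h these 45 oligos had 1.58% and 1.54% in wild-type cells and 1.44%, 1.52% and 1.60% in knockout cells. Their companions had 2.33% and 2.37%, and 2.01%, 2.03% and 2.17%. At 0 h no oligo differed between knockout and wild type by edgeR (0% of the 10576 oligos in either direction, and 0 Fam219a oligos at an unadjusted p under 0.05; limma also called 0), with a median of -0.05 over wild-type oligos, -0.08 over companions and -0.08 over all. The wild-type oligos of the stretch thus started below their companions in every library. The cause of that gap was not tested.

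The shares below are of rates from which the background without 4SU was not subtracted. After 12 h, oligos 142 to 186 kept 53.0%, 53.1% and 57.4% of their mean 0 h rate in the 3 wild-type libraries, and 71.7%, 24.5% and 27.1% in the 3 knockout libraries. All oligos of the pool kept 59.1%, 59.0% and 67.3%, and 73.5%, 23.3% and 25.9%. In wild-type cells the stretch was below the pool in each library. In knockout cells, with the background left in, it was below the pool in replicate 1 and above it in the others. The whole pool converted 1.81%, 1.83% and 1.91% of T positions at 0 h in knockout cells, more than the stretch did. Background is therefore a larger part of the rates of the stretch. The order of stretch and pool may turn with the background subtracted, which was not tested. Its companions kept 62.6%, 64.5% and 72.7% in wild-type cells and 79.3%, 38.6% and 39.98% in knockout cells, above the stretch in each library. Oligo 151 had rates of 1.36% and 1.32% at 0 h and 0.812%, 0.816% and 0.800% at 12 h in wild-type cells. In knockout cells it had 1.35%, 1.33% and 1.54% at 0 h and 1.04%, 0.299% and 0.395% at 12 h. Its companion had 2.30% and 2.03%, then 1.62%, 1.76% and 1.77%, in wild-type cells, and 2.16%, 1.97% and 2.20%, then 1.60%, 1.29% and 1.02%, in knockout cells.

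Tests of label loss turned on the library that stood apart. With all libraries, edgeR called 342 wild-type and 233 mutated oligos lower at 12 h than at 0 h in knockout cells (97.2% of all oligos; 0% higher) and none in wild-type cells (0.00946% lower and 0% higher over all oligos; 42 wild-type and 18 mutated at an unadjusted p under 0.05; 0 by limma on log2 rates). The change in loss, knockout against wild type, was called for none (0% of all oligos in either direction; 1 wild-type and 2 mutated at an unadjusted p under 0.05; 0 by limma, with 5 and 8). Its median was -0.69 over wild-type oligos, -0.67 over companions and -0.79 over all oligos. Without knockout replicate 1 at 12 h, the change in loss was called lower for 351 wild-type and 239 mutated oligos, beside 96.3% of all oligos, with medians of -1.19 and -1.14 beside -1.33. Loss in wild-type cells was then called for 342 and 236, beside 97% of all, and loss in knockout cells for 361 and 257, beside 99.7%. Leaving out replicate 2 or replicate 3 of every group instead left 0 called for loss in knockout cells. Those shifts moved the whole pool. With each library centred on its own median, limma called 0 Fam219a oligos in any of the 4 tests (17 wild-type and 20 mutated at an unadjusted p under 0.05 for the change in loss, 138 and 108 for loss in knockout cells), and the median change in loss was 0.10 for wild-type oligos and companions alike. The motif effect on the change in loss was called for none of 258 pairs (limma; 0% of all 3865 pairs in either direction; 14 at an unadjusted p under 0.05). Without knockout replicate 1 at 12 h it was called higher for 2, beside 0.517% of pairs, and lower for 1, beside 0.983%.

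The largest losses in knockout cells were in mutated oligos 17, 11, 36, 6 and 4, from -2.50 to -2.09, all near the 5′ end. Without knockout replicate 1 at 12 h they stood at -3.24, -3.12, -2.96, -3.30 and -3.02, with mutated oligo 10 and oligo 406 among them (-3.10 and -3.09), so the order was not stable, and the 5 calls were lost without replicate 2 or replicate 3 of every group and with library-centred rates. Mutated oligo 17 had rates of 2.19%, 1.81% and 1.73% at 0 h and 0.730%, 0.162% and 0.255% at 12 h, a log2 change in odds of -2.50 ± 0.51 (edgeR adjusted p 0.000156). The groups did not overlap. Along the UTR, wild-type cells lost most label in the bins 1 to 20 and 21 to 40, with medians of -0.995 and -1.01, and least in the bin 301 to 320, at -0.44. Centred on the pool these were -0.29, -0.30 and 0.24. The bins 141 to 160 and 161 to 180 stood at -0.84 and -0.89, or -0.14 and -0.19 when centred. In knockout cells the centred medians of those bins were 0.06 and -0.03, and those of the bins 1 to 20 and 21 to 40 were -0.31 and -0.33, or 0.10, -0.03, -0.21 and -0.41 without knockout replicate 1 at 12 h.

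The first, middle and last wild-type oligos of the tiling were named by rule. Oligo 1 with 1 motif had 15.5, 14.7, 14.8 and 15.8 CPM in wild-type neurites and 14.3, 12.6, 14.5 and 15.2 CPM in knockout neurites. The middle oligo with 4 motifs had 92.2, 103, 100.3 and 102 CPM against 99.8, 97.9, 106 and 97.1 CPM. The last oligo with 5 motifs had 25.2, 21.2, 19.4 and 23.1 CPM against 20.7, 19.003, 22.6 and 21.3 CPM. Their groups overlapped. At 500 nM oligo 1 had R of 1.24 and 0.813 from 65 input reads, the middle oligo 0.623 and 0.642 from 2232, and the last 0.475 and 0.830 from 104. Their label rates in wild-type cells went from 2.02% and 1.88% at 0 h to 0.835%, 0.912% and 1.25% at 12 h in oligo 1. The middle oligo went from 1.88% and 1.78% to 1.02%, 0.826% and 1.13%, and the last from 1.75% and 1.64% to 1.16%, 1.03% and 1.23%.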

How the data were processed

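The authors trimmed adapters with cutadapt, aligned oligo reads with bowtie2 and deposited counts per oligo (UMI counts for MPRA, reads for RBNS, base conversions for SLAM-seq). For the RNA-seq the authors deposited values per transcript, as estimated counts and as TPM from Salmon. Versions of these tools were not stated. Transcripts were summed to genes with GENCODE vM21. Members and lists were chosen with earlier results of these data known.

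Tests used edgeR 4.0.16 (quasi-likelihood; TMM for MPRA and genes, total scaling for RBNS, its methylation design for SLAM-seq), limma 3.58.1 for wild-type oligo minus companion (prior count 2) and DESeq2 1.42.0 as an alternative, in R 4.3.3, with Python 3.11.15, pandas 2.3.3, numpy 2.4.6 and RNAplfold 2.7.2, after filterByExpr. Adjusted p thresholds were 0.01, and 0.05 for SLAM-seq. Comparisons within an assay share libraries. MPRA, RBNS, SLAM-seq and CAD models were tested on simulated data, and the outcomes are not given here. The simulated SLAM-seq data held no shift of a whole library. They therefore do not bear on the calls that turned on knockout replicate 1 at 12 h.

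Named are, for each test, the 5 largest rises and 5 largest falls past the threshold whose groups do not overlap, the wild-type oligos with most motifs and with the highest mean R at 500 nM, with companions, the first, middle and last wild-type oligos, Fam219a and Tardbp. Alternatives covered tool, scaling, filter, threshold, pseudocount, block, classes and leaving out libraries. Human motor neuron samples were left out.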

Additional observations from a re-analysis of the deposited data

Results flagged for a closer look

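In groups of 4 libraries, 104 groups of named oligos were tested for a library far from the others, and 2 had such a library, by the gap to the nearest library as a share of the range. Chance gives about 1 in 20 groups. Oligo 176 had 30.5 CPM in replicate 1 of wild-type soma, above the other 3 libraries. Oligo 356 had 57.9 CPM in replicate 3 of knockout soma, below the other 3.

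The knockout effect on endogenous Fam219a differed between neurites and soma, by 2.76 on the log2 scale in CAD and by 0.98 in N2A (edgeR interaction terms). In N2A it was no longer called without replicate 1, 2 or 3 of each group. The knockout effect was also called different between neurites and soma for 28 Fam219a oligos. All are wild type, and in all of them the effect was larger in neurites. They make 6.95% of the Fam219a wild-type oligos, beside 7.06% of all wild-type oligos, so the share was at the level of the pool.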

How the results depend on the processing

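Of the alternative values for counts of oligos, medians and the endogenous gene, 335 stayed the same within the limits used, 77 moved, 2 passed the threshold newly, 3 no longer passed and 4 reversed. For single oligos and genes, 832 stayed the same and 85 no longer passed. The cause was not tested except where named.

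Counts below are of Fam219a oligos. With a threshold of 0.05, which admits more by construction, 2 were lower in the change in localization ratio (0 at 0.01), 5 lower in soma (0), 11 lower in neurites (4) and 1 pair lower in the motif effect on the ratio (0). For RBNS it gave 220 lower from 5 to 500 nM (146), 75 higher and 18 lower from 5 to 50 nM (33 and 5), and 60 higher from 50 to 500 nM (35).

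DESeq2 gave 1 lower in soma, 92 lower from 5 to 500 nM, 89 higher and 1 lower from 5 to 50 nM, and 0.32 for the gene in N2A soma, past the threshold. Read counts in place of UMIs gave 1 lower in soma and 2 lower in neurites. Upper-quartile scaling gave 2 lower in the ratio, 18 lower in soma and 196 lower in neurites, and moved the median of all oligos to -0.16 in neurites and of all genes to -0.12 in N2A soma. Scaling to the total, chosen after seeing the data, gave 15 higher (28) and 572 lower in the ratio, 68 lower in soma and 641 lower in neurites, since it moves the median of all oligos. TMM gave 76 lower from 5 to 500 nM, and 77 higher and 0 lower from 5 to 50 nM (edgeR; 122 wild-type and 102 mutated at an unadjusted p under 0.05; DESeq2 called 1 lower).

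A replicate block gave 1 lower in soma, 2 lower from 5 to 50 nM and 0.29 for the gene in N2A soma, past the threshold. A block with the numbers at 500 nM exchanged, chosen after seeing the data, gave 56 higher and 12 lower from 5 to 50 nM. By correlation, replicate numbers did not pair throughout, so the block is an alternative alone.

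Leaving out libraries in turn gave 11 to 31 lower in the wild-type ratio (29), 0 to 1 lower in soma, 0 to 3 lower in neurites, 77 to 127 lower from 5 to 500 nM, 0 to 47 higher and 0 to 8 lower from 5 to 50 nM, and 16 to 40 higher and 42 to 160 lower from 50 to 500 nM (35 and 154). It gave 0 to 590 lower in the change in label loss (0), 0 to 578 in wild-type loss (0) and 0 to 618 in knockout loss (575), where library-centred limma rates, chosen after seeing the data, gave 0 (138 wild-type and 108 mutated at an unadjusted p under 0.05; 341 and 233 by limma uncentred). Leaving out knockout replicate 1 at 12 h alone was also chosen after seeing the data. For motif effects it gave 9 to 15 higher in the ratio (18), 0 to 1 lower in neurites (0), and 0 to 2 higher and 0 to 1 lower in label loss. The gene stood at 0.88 to 0.99 in N2A, no longer past the threshold, and at -0.068 to 0.18 in soma with Q331K, where the sign turned.

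The median R with 10 or more motifs at 5 nM (1.37) was 1.18 with 0 nM as denominator, 1.17 with at least 100 input reads and 1.20 to 1.41 by library. At 50 nM (3.80) it was 2.04 with at least 100 reads and 3.10 to 3.81 by library, and at 500 nM it was 4.35 with at least 100 reads. Without motifs, at 5 nM (1.18) it was 1.04 with 0 nM as denominator, 1.13 without pseudocount, 1.17 with at least 100 reads and 1.198 to 1.201 by library. At 50 nM (1.32) it was 0.898 with at least 100 reads, below 1, and 1.17 to 1.30 by library. At 500 nM (1.22) it was 1.32 with 0 nM as denominator, 0.518 with at least 100 reads, below 1, and 1.11 to 1.24 by library. With 15 or more motifs the median change was 1.24 in soma and 1.91 in neurites, in place of 0.81 and 0.98, and the highest neurite bin was 2.41 with bins of 10 oligos in place of 2.18.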

Other observations

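The limits of these values are as follows. The oligos of Fam219a overlap, so a run of calls is a single stretch of sequence. Neurite and soma values are relative within a library. RBNS had 2 libraries per concentration with protein, and few input reads for the companions of oligos 142 to 186. The label loss tests turned on a single library. The sequences of oligos 139 to 180, nearly all of the responding stretch, were filled in from overlapping oligos. Coordinates come from the annotated transcript, not from a genome sequence.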
